A study of Mus musculus with 17 samples.

Results

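Transcripts of 9 genes of the complement system were followed in sorted mouse synovial macrophages: C1qa, C1qb, C1qc, C4b, C3, Cfp and Cfb, which encode components, and C3ar1 and C5ar1, which encode receptors. They were taken by symbol as 9 of the 22859 genes of the joint count table, and all 9 passed the filter on low counts that left 15272 genes for testing. RNA was sequenced from 17 libraries of 3 macrophage subsets of the knee synovium, each from control mice and from mice taken 8 h after an intravenous injection of immune complexes (IC) of ovalbumin and rabbit antibody to ovalbumin. The subsets were LYVE1+CX3CR1+ macrophages, sorted as MHCII- cells, MHCII+CD11c- macrophages and MHCII+CD11c+ macrophages. Every mouse, controls included, was labelled Fcgr2b-KO, a knockout of the inhibitory receptor for IgG, and per the study's methods mice were adults of both sexes. Each group had 3 libraries, except MHCII+CD11c+ after IC with 2. The labels do not say whether libraries of one group came from separate mice or whether mice were pooled, so the p-values measure the spread between these libraries, which may be technical.

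Complement is a cascade of plasma and tissue proteins that tags targets for uptake and draws in leukocytes. C1q, built from the A, B and C chains encoded by C1qa, C1qb and C1qc, recognises IgG and IgM in immune complexes and starts the classical pathway, in which C4 is cleaved next. All pathways meet at C3, whose fragments mark surfaces for phagocytosis. Factor B and properdin, encoded by Cfb and Cfp, form and stabilise the alternative pathway convertase. The small fragments C3a and C5a signal through the receptors encoded by C3ar1 and C5ar1. Tissue macrophages are a main source of C1q, while most circulating C3 and C4 comes from the liver.

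All 9 genes lie on the minus strand of the GRCm38 assembly (mm10). The C1q chains are neighbours on chr4, with C1qb at 136880129-136886187, C1qc at 136889804-136893065 and C1qa at 136895917-136898803. C4b (34728380-34743882), Cfb (34856374-34862518) and C3 (57203970-57228136) are on chr17. C3ar1 is at chr6:122847138-122856161, C5ar1 at chr7:16246743-16259540 and Cfp at chrX:20925454-20931555. C4b has a near-identical copy, C4a, and Cfb shares 2246 exon bases with the read-through gene Gm20547 on the same strand, so the counts of both depend on how shared reads were assigned.

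Promoter windows of 250 bases before to 50 after the start site were held in the RefSeq table (GRCm38.p6) for 6 of the 9 genes, those of C1qb, C1qc, C3, C3ar1, C5ar1 and Cfp. Printed 5′ to 3′ are those of C1qb and C1qc, because the C1q chains were all lowest in MHCII+CD11c+ macrophages, with C5ar1, which was lowest there too, and Cfp, which was not. Capitals mark matches to letter patterns searched on both strands: GAGGAA, the core bound by the macrophage factor PU.1 (TTCCTC where it is on the opposite strand), and GAAANNGAA, an interferon regulatory factor repeat.
C1qb, chr4:136886151-136886450, minus strand: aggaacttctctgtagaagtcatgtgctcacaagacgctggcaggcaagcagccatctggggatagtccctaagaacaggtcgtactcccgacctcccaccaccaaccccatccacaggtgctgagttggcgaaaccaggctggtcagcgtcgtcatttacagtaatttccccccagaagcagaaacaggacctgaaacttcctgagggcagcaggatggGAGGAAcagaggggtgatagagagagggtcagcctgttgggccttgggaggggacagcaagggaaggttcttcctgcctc
C1qc, chr4:136892865-136893164, minus strand: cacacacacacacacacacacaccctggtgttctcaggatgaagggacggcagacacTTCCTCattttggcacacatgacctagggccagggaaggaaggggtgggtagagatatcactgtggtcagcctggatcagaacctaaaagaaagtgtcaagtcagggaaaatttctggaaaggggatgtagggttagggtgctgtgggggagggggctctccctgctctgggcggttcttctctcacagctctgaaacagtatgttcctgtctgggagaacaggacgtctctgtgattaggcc
C5ar1, chr7:16259289-16259588, minus strand: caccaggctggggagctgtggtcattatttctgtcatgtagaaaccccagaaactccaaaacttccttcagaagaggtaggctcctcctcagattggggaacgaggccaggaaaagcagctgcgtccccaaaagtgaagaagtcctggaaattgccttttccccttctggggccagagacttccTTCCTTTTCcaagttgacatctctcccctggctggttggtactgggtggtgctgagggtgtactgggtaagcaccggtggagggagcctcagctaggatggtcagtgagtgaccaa
Cfp, chrX:20931506-20931805, minus strand: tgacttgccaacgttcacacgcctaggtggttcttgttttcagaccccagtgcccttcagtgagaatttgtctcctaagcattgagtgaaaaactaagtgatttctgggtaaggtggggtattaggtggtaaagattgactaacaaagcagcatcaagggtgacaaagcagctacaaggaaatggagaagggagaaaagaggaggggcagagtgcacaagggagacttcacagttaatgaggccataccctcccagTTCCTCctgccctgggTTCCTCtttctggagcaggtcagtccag
GAGGAA began 30 bases before the start of C1qb (position -30) and, on the opposite strand, at position -193 of C1qc. Cfp held it 2 times, on the opposite strand, just after the start. C5ar1 held 1 interferon regulatory factor repeat at position -66. The windows of C3 and C3ar1 held neither pattern. Among 32851 promoters, 28.3% held GAGGAA and 8.56% GAAANNGAA, so a match is a description of the letters only.

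Library totals ran from 2301913 to 7248939 counts, and levels are given below as CPM, counts scaled to TMM-adjusted library totals. The Fcgr2b gene was counted in all 17 libraries, from 167 to 1168 counts, and gene totals do not show which exons these came from. Summed macrophage markers were 8650 to 17600 CPM, with 7 of 7 detected in each group. The 5 MHCII subset markers summed to 66.4 to 673 CPM in LYVE1+CX3CR1+ libraries and to at least 12200 in the others, and Itgax, which encodes CD11c, was at 275 to 443 CPM in MHCII+CD11c+ libraries and at most 16 CPM elsewhere. The 6 LYVE1 subset markers separated less, at 3850 to 7020 CPM in LYVE1+CX3CR1+, 1020 to 3370 in MHCII+CD11c- and 64.3 to 632 in MHCII+CD11c+ libraries. Among them, Lyve1 averaged 1955 CPM in LYVE1+CX3CR1+ and 852 in MHCII+CD11c- controls, and 3619 and 2083 CPM after IC. At equal depth, LYVE1+CX3CR1+ libraries after IC held 11547 to 13857 genes, against 13819 to 17652 in all other groups. Control library 2 of the MHCII+CD11c+ macrophages stood apart. Its 6 LYVE1 subset markers summed to 632 CPM against 100 and 64.3 in controls 1 and 3, its 6 dendritic cell markers to 218 against 576 and 498, and its C1q chains to 2070 against 535 and 589. Control library 2 of the MHCII+CD11c- macrophages leaned the same way in these markers. Its LYVE1 subset markers summed to 1900 CPM against 1020 and 1150 in controls 1 and 3, and dendritic cell markers to 91.4 against 162 and 225. Its C1q chains were instead lowest, at 4663 against 5165 and 5071. In each subset, control library 2 had the highest C3 and the lowest C4b and Cfp of the controls. A source shared by these libraries was not tested. Results that rest on MHCII+CD11c+ control library 2 are given with and without it. Because its C1q level was among the reasons to single it out, values without it only show how far results depend on it.

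**Figure D1:**
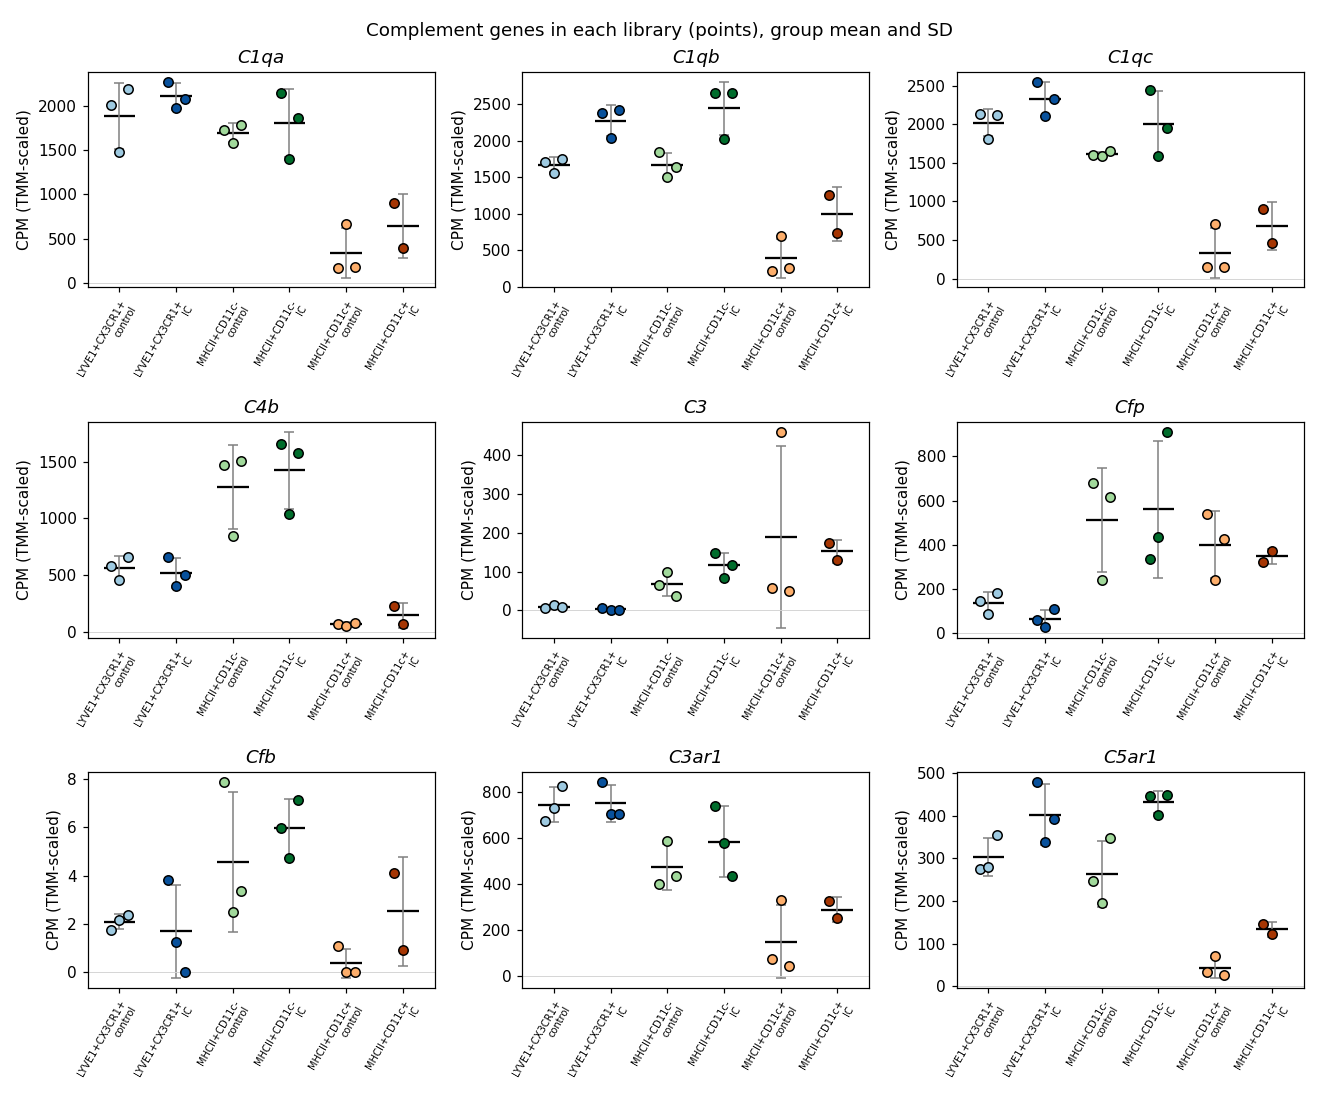
Level (CPM, linear axes that differ between panels) of each complement gene in each library (points), with the group mean (black line) and SD (grey bar), for controls (pale) and after IC (dark) in 3 macrophage subsets, with 3 libraries a group and 2 for MHCII+CD11c+ after IC. The C1q chains, C3ar1 and C5ar1 sit lowest in MHCII+CD11c+ macrophages, C4b is highest in MHCII+CD11c- macrophages, and C3 and Cfp are lowest in LYVE1+CX3CR1+ macrophages.

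Subsets were first compared in control mice. LYVE1+CX3CR1+ and MHCII+CD11c- control macrophages carried the C1q chains at 5570 ± 647 and 4970 ± 267 CPM in sum (SD, n = 3), and MHCII+CD11c+ control macrophages at 1060 ± 871 CPM. C4b and both anaphylatoxin receptors were also lowest in MHCII+CD11c+ macrophages, while C3 was higher there than in LYVE1+CX3CR1+ macrophages. Between LYVE1+CX3CR1+ and MHCII+CD11c+ controls 7 of 9 genes were called (edgeR quasi-likelihood test, adjusted p under 0.05), 6 higher and 1 lower, where 15.2% of all genes tested were called. Between MHCII+CD11c+ and MHCII+CD11c- controls 5 of 9 were called, all lower in MHCII+CD11c+, against 8.66% of all genes. From LYVE1+CX3CR1+ to MHCII+CD11c- controls none of the 9 was called, against 1.56% of all genes, while 3 of the 9 (C3, C4b and Cfp) had an unadjusted edgeR p under 0.05, as did 10.2% of all genes, and DESeq2 called 2, C4b and Cfp, against 3.9% of all genes it tested.

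C1qa was at 2001, 1472 and 2188 CPM in LYVE1+CX3CR1+ controls, 1720, 1576 and 1786 in MHCII+CD11c- controls, and 173, 667 and 186 in MHCII+CD11c+ controls. Every MHCII+CD11c+ library was below every library of the other subsets, and the other two subsets overlapped. The log2 difference of C1qa between LYVE1+CX3CR1+ and MHCII+CD11c+ was 2.46 ± 0.46 (SE, edgeR, adjusted p = 0.00386), and 3.40 ± 0.25 without control library 2. C1qb stood at 1709, 1549 and 1743 CPM, then 1844, 1503 and 1635, then 215, 698 and 254 in the same order of subsets. C1qc stood at 2130, 1815 and 2115 CPM, then 1601, 1584 and 1651, then 148, 705 and 149. For both chains MHCII+CD11c+ libraries again lay below all others, and for C1qc, unlike C1qb, the other two subsets did not overlap either, with log2 differences between LYVE1+CX3CR1+ and MHCII+CD11c+ of 2.10 ± 0.34 for C1qb (adjusted p = 0.000816) and 2.59 ± 0.50 for C1qc (adjusted p = 0.0054). Without control library 2 these were 2.83 ± 0.19 for C1qb and 3.77 ± 0.21 for C1qc. Between MHCII+CD11c+ and MHCII+CD11c- the log2 differences were -2.31 ± 0.46 for C1qa, -2.09 ± 0.34 for C1qb and -2.27 ± 0.50 for C1qc, all called, and without control library 2 they were -3.24 ± 0.25, -2.83 ± 0.19 and -3.44 ± 0.21. The call of C1qc was lost, at adjusted p = 0.0502 and 0.0533, without MHCII+CD11c- control 1 or 3, and with only the groups compared (adjusted p = 0.106). With surrogate variables in the model the calls of C1qc (adjusted p = 0.0863) and C1qa (adjusted p = 0.0975) were both lost. In bulk libraries fewer C1q-expressing cells and less C1q RNA per cell cannot be told apart.

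C4b, cleaved after C1q binds its target, had the largest called difference between the MHCII+ control subsets of the 9 genes. It was at 1469, 847 and 1508 CPM in MHCII+CD11c- controls, 579, 457 and 665 in LYVE1+CX3CR1+ controls, and 76.8, 58.5 and 85.9 in MHCII+CD11c+ controls. No libraries overlapped between any pair of subsets, in contrast to C1qa and C1qb, where 21.6% to 37.7% of all genes did not overlap in a pair. The log2 difference was -4.12 ± 0.36 between MHCII+CD11c+ and MHCII+CD11c- (adjusted p = 1.775e-05) and 2.95 ± 0.36 between LYVE1+CX3CR1+ and MHCII+CD11c+ (adjusted p = 9.793e-05). Between LYVE1+CX3CR1+ and MHCII+CD11c- it was -1.17 ± 0.36, which was not called (adjusted p = 0.171). Fibroblasts also make C4. The summed level of 8 fibroblast markers was 64 to 85.9 CPM in MHCII+CD11c- controls, 34 to 69 in LYVE1+CX3CR1+ controls and 8.7 to 220 in MHCII+CD11c+ controls. Their part in the C4b levels was not tested.

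The receptor genes were also lowest in MHCII+CD11c+ macrophages. C3ar1, which encodes the C3a receptor, was at 677, 734 and 827 CPM in LYVE1+CX3CR1+ controls, 401, 588 and 435 in MHCII+CD11c- controls, and 74.0, 333 and 45.4 in MHCII+CD11c+ controls. It was 2.30 ± 0.55 log2 higher in LYVE1+CX3CR1+ macrophages than in MHCII+CD11c+ (adjusted p = 0.0173), a call lost without LYVE1+CX3CR1+ control 3 (adjusted p = 0.0547) or MHCII+CD11c+ control 1 (adjusted p = 0.0588) and with only the groups compared (adjusted p = 0.109). Without control library 2 this C3ar1 difference was 3.63 ± 0.23. Against MHCII+CD11c- the MHCII+CD11c+ difference of C3ar1 was -1.65 ± 0.55 and not called (adjusted p = 0.103), and without control library 2 it was -2.98 ± 0.23 (adjusted p = 3.493e-08). C5ar1, which encodes the C5a receptor, was at 274, 280 and 354 CPM in LYVE1+CX3CR1+ controls, 247, 194 and 347 in MHCII+CD11c- controls, and 32.5, 70.0 and 26.1 in MHCII+CD11c+ controls. Its libraries overlapped between the first 2 subsets and all lay above MHCII+CD11c+. C5ar1 differed by 2.80 ± 0.28 log2 between LYVE1+CX3CR1+ and MHCII+CD11c+ (adjusted p = 8.926e-07) and by -2.60 ± 0.28 between MHCII+CD11c+ and MHCII+CD11c- (adjusted p = 7.105e-06), and without control library 2 by 3.36 ± 0.23 and -3.15 ± 0.23.

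C3 and Cfp ran the other way. C3 was at 5.51, 12.7 and 8.09 CPM in LYVE1+CX3CR1+ controls, 65.7, 98.96 and 37.5 in MHCII+CD11c- controls, and 58.7, 461 and 49.2 in MHCII+CD11c+ controls. Each LYVE1+CX3CR1+ library was below each library of both MHCII+ subsets, which overlapped. The log2 difference of C3 from MHCII+CD11c+ was -4.47 ± 0.94 (adjusted p = 0.0119) and, without control library 2, -2.65 ± 0.72 (adjusted p = 0.0244). This call was lost without LYVE1+CX3CR1+ control 1 (adjusted p = 0.0593) or 3 (adjusted p = 0.057) and with only the groups compared (adjusted p = 0.0567). From MHCII+CD11c- it was -2.98 ± 0.95, not called (adjusted p = 0.24). Cfp, the gene of properdin, stood at 145, 88.1 and 182 CPM in LYVE1+CX3CR1+ controls, 679, 243 and 615 in MHCII+CD11c- controls, and 538, 241 and 425 in MHCII+CD11c+ controls. No LYVE1+CX3CR1+ library reached the lowest MHCII+ library, yet the log2 differences, -1.89 ± 0.56 from MHCII+CD11c- (adjusted p = 0.187) and -1.53 ± 0.56 from MHCII+CD11c+ (adjusted p = 0.101), were not called. Cfb was at most 7.89 CPM in any control library and was at 0 in MHCII+CD11c+ controls 2 and 3, where a count of 0 allows up to 0.557 and 1.14 CPM (3 counts, counting error only). Its log2 difference between MHCII+CD11c+ and MHCII+CD11c- controls was -3.50 ± 1.30 and not called (adjusted p = 0.0969). Of 13 alternatives 3 called it, DESeq2 among them (adjusted p = 0.0212).

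Per kilobase of exon, which allows levels to be compared between genes, C1qa led in LYVE1+CX3CR1+ controls at 1815 ± 357 CPM per kb (SD, n = 3), followed by C1qb at 1532 ± 95.5 and C1qc at 1046 ± 91.9. C3ar1 came next at 173 ± 17.6 CPM per kb, then C5ar1 at 118 ± 17.4, C4b at 99.6 ± 18.3 and Cfp at 79.7 ± 27.2, and C3 at 1.71 ± 0.71 and Cfb at 0.739 ± 0.12 came last. Neighbours in this order whose means ± SD overlapped were C1qa and C1qb, C5ar1 and C4b, and C4b and Cfp. In MHCII+CD11c+ controls Cfp (231 ± 86.2 CPM per kb) was close to C1qc (173 ± 167), with spreads that overlapped, while C4b was at 12.9 ± 2.45.

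Next, the subsets were compared after IC. C4b and C5ar1 were again lowest in MHCII+CD11c+ macrophages and C3 and Cfp in LYVE1+CX3CR1+ macrophages, while the differences of the C1q chains between LYVE1+CX3CR1+ and MHCII+CD11c+ were not called. Between LYVE1+CX3CR1+ and MHCII+CD11c+ 4 of 9 genes were called, 2 higher and 2 lower, against 11.9% of all genes. For LYVE1+CX3CR1+ against MHCII+CD11c- macrophages 3 were called, all lower in LYVE1+CX3CR1+, against 5.54% of all genes. Between MHCII+CD11c+ and MHCII+CD11c- 2 were called, both lower in MHCII+CD11c+, against 4.03% of all genes.

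C3 reached 148, 83.0 and 116 CPM for MHCII+CD11c- and 174 and 131 CPM for MHCII+CD11c+ macrophages after IC, and it was at 6.73, 0 and 0 CPM in LYVE1+CX3CR1+ macrophages. Its log2 difference was -5.54 ± 1.26 between LYVE1+CX3CR1+ and MHCII+CD11c- (adjusted p = 0.0203) and -5.94 ± 1.33 from MHCII+CD11c+ (adjusted p = 0.00925), sizes that rest on 2 libraries without a C3 read, in which 0 counts allow up to 0.944 and 1.24 CPM. The first of these calls was lost without LYVE1+CX3CR1+ IC library 2 (adjusted p = 0.0587) or 3 (adjusted p = 0.0702) or MHCII+CD11c- IC library 3 (adjusted p = 0.0523). Cfp was at 61.2, 25.8 and 108 CPM in LYVE1+CX3CR1+, 334, 436 and 912 for MHCII+CD11c-, and 323 and 373 for MHCII+CD11c+ macrophages after IC. LYVE1+CX3CR1+ libraries again lay below all others, in pairs where 21.9% and 40.9% of all genes did not overlap. The log2 difference of Cfp was -3.12 ± 0.57 from MHCII+CD11c- (adjusted p = 0.0116) and -2.43 ± 0.63 from MHCII+CD11c+ (adjusted p = 0.0283). The first Cfp call was lost with only the groups compared (adjusted p = 0.054). The second was lost without any 1 of 4 libraries, LYVE1+CX3CR1+ IC 1 or 2 or either MHCII+CD11c+ IC library, with adjusted p up to 0.17.

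C4b was at 660, 403 and 507 CPM in LYVE1+CX3CR1+, 1656, 1035 and 1577 for MHCII+CD11c-, and 230 and 72.2 for MHCII+CD11c+ macrophages after IC. Subsets again did not overlap, in pairs where 21.9% to 40.9% of all genes did not. The log2 difference of C4b between MHCII+CD11c+ and MHCII+CD11c- was -3.24 ± 0.40 (adjusted p = 0.000953), and it was 1.79 ± 0.40 between LYVE1+CX3CR1+ and MHCII+CD11c+ (adjusted p = 0.0138). Between LYVE1+CX3CR1+ and MHCII+CD11c- it was -1.44 ± 0.36 (adjusted p = 0.0332), a call lost without LYVE1+CX3CR1+ IC 2 or 3 or MHCII+CD11c- IC 1 or 3, at adjusted p up to 0.109, with no low count filter (adjusted p = 0.094) and with surrogate variables (adjusted p = 0.141). With surrogate variables the C4b call between LYVE1+CX3CR1+ and MHCII+CD11c+ was lost as well (adjusted p = 0.105). C5ar1 was at 479, 338 and 391 CPM, 445, 402 and 448 CPM, and 145 and 121 CPM in the same order of subsets. Its log2 difference was 1.60 ± 0.30 between LYVE1+CX3CR1+ and MHCII+CD11c+ (adjusted p = 0.00199) and -1.70 ± 0.30 between MHCII+CD11c+ and MHCII+CD11c- (adjusted p = 0.00288). Without MHCII+CD11c+ IC library 2 these C5ar1 and C4b calls against LYVE1+CX3CR1+ were lost, at adjusted p = 0.0519 and 0.0758, and C5ar1 against MHCII+CD11c- was lost at adjusted p = 0.104.

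The C1q chains of LYVE1+CX3CR1+ macrophages remained above MHCII+CD11c+ after IC in every library, in a pair where 40.9% of all genes did not overlap. Their log2 differences were 1.71 ± 0.51 for C1qa (adjusted p = 0.0639), 1.19 ± 0.38 for C1qb (adjusted p = 0.0679) and 1.78 ± 0.56 for C1qc (adjusted p = 0.0799). Of 7 alternatives that kept all libraries of these groups, 5 called C1qa and C1qb and 3 called C1qc, DESeq2 among them (adjusted p = 0.0056, 0.00226 and 0.00946), and no leave-out of a single library called any of the 3. C3ar1 differed by 1.37 ± 0.61 log2 (adjusted p = 0.202) and was called in 2 of the 7.

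**Figure D2:**
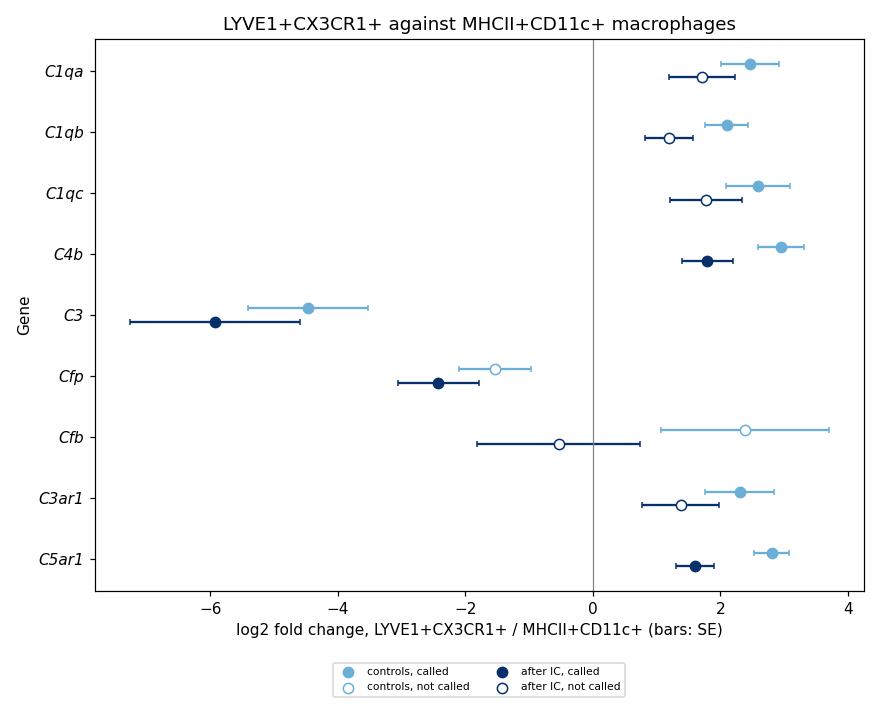
Log2 fold change (x axis, bars are SE) of each complement gene in LYVE1+CX3CR1+ over MHCII+CD11c+ macrophages in controls (pale) and after IC (dark), filled where called. Of the 9 genes, 7 were called in controls and 4 after IC, C3 is far to the left in both, and the C1q chains lie to the right, at 2.10 to 2.59 in controls and 1.19 to 1.78 after IC.

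The response to IC within each subset was then compared. In LYVE1+CX3CR1+ macrophages none of the 9 genes was called, against 0.963% of all genes, and in MHCII+CD11c- macrophages none was called, against 0.701% of all genes. In MHCII+CD11c+ macrophages C5ar1 alone was called, against 0.216% of all genes. At an unadjusted p under 0.05 the numbers of the 9 genes were 0, 1 and 3, beside 14.1%, 9.99% and 5.21% of all genes in the same order of subsets. DESeq2 called 0, 0 and 2 of the 9, against 2.91%, 2.53% and 0.654% of the genes it tested.

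C5ar1 in MHCII+CD11c+ macrophages went from 32.5, 70.0 and 26.1 CPM to 145 and 121 CPM after IC, with no overlap. The log2 fold change of C5ar1 was 1.62 ± 0.31 (95% interval 0.98 to 2.26, adjusted p = 0.027). The call was lost without MHCII+CD11c+ control 1 (adjusted p = 0.146), control 3 (adjusted p = 0.139), IC library 1 (adjusted p = 0.474) or IC library 2 (adjusted p = 0.079). It was also lost with only these 5 libraries in the fit (adjusted p = 0.411) and with the replicate block. In MHCII+CD11c- macrophages C5ar1 went from 247, 194 and 347 to 445, 402 and 448 CPM, also with no overlap, and its log2 fold change of 0.72 ± 0.27 was not called (adjusted p = 0.32). In LYVE1+CX3CR1+ macrophages it was 0.41 ± 0.27 (95% interval -0.15 to 0.97). The differences between subsets in the C5ar1 response, -1.21 ± 0.41 for LYVE1+CX3CR1+ minus MHCII+CD11c+ and 0.90 ± 0.41 for MHCII+CD11c+ minus MHCII+CD11c-, were not called, at adjusted p = 0.397 and 1.

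With all libraries, C1qb was the chain with the largest log2 fold change after IC in each subset, and was not called in any. Its control and IC libraries did not overlap in LYVE1+CX3CR1+ macrophages, where it went from 1709, 1549 and 1743 to 2371, 2028 and 2411 CPM (log2 0.45 ± 0.34, adjusted p = 0.616). Nor did they in MHCII+CD11c- macrophages, where it went from 1844, 1503 and 1635 to 2650, 2024 and 2655 CPM (log2 0.56 ± 0.34, adjusted p = 0.673). In MHCII+CD11c+ macrophages it went from 215, 698 and 254 to 1256 and 736 CPM (log2 1.36 ± 0.38, adjusted p = 0.358), and by DESeq2 this change of C1qb was called (adjusted p = 0.0342). Libraries of all genes failed to overlap at a similar rate, for 21.6% of genes in LYVE1+CX3CR1+, 17.2% for MHCII+CD11c- and 23.1% for MHCII+CD11c+ macrophages. C1qa and C1qc overlapped between control and IC in all 3 subsets, with log2 fold changes of 0.16 ± 0.46 and 0.20 ± 0.50 in LYVE1+CX3CR1+, 0.09 ± 0.46 and 0.31 ± 0.50 for MHCII+CD11c-, and 0.91 ± 0.51 and 1.02 ± 0.56 for MHCII+CD11c+ macrophages.

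**Figure D3:**
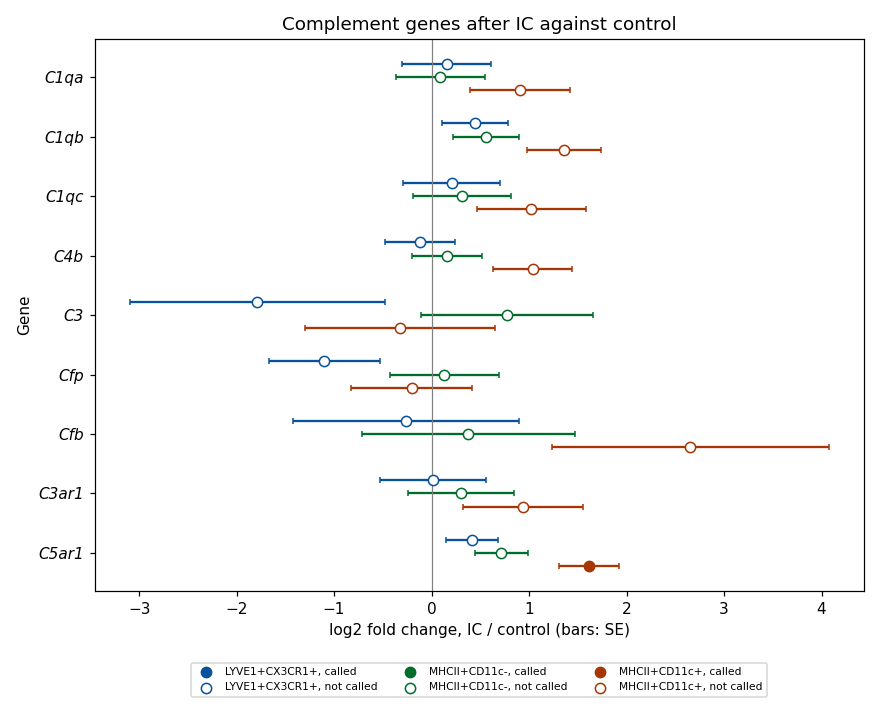
Log2 fold change after IC over control (x axis, bars are SE) of each complement gene in each subset, filled where called. C5ar1 in MHCII+CD11c+ macrophages, at 1.62, is the only filled point.

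Control library 2 decided how much of the MHCII+CD11c+ response was called. It had been singled out in part by its own C1q level. The calls and p-values without it therefore show dependence on this library and are no separate support for a response. Without it, C1qc rather than C1qb had the largest change of the chains, and 5 of the 9 genes were called, all higher after IC, against 0.688% of all 15116 genes tested. They were C1qa (log2 1.84 ± 0.28, adjusted p = 0.00135), C1qb (2.09 ± 0.21, adjusted p = 7.848e-06), C1qc (2.20 ± 0.23, adjusted p = 9.838e-06), C3ar1 (2.27 ± 0.25, adjusted p = 2.126e-05) and C5ar1 (2.17 ± 0.25, adjusted p = 2.733e-05). C4b stayed uncalled at 0.90 ± 0.46, and C3 went from -0.32 ± 0.97 with the library to 1.49 ± 0.74 without it, neither called. Without the library the response of the same 5 genes also differed from that of LYVE1+CX3CR1+ macrophages, against 0.37% of all genes, by -1.64 ± 0.27 (C1qb, adjusted p = 0.00264) to -2.26 ± 0.32 (C3ar1, adjusted p = 0.000751). Against MHCII+CD11c- macrophages it differed for 3 genes, C1qb (1.53 ± 0.27), C1qc (1.89 ± 0.30) and C3ar1 (1.97 ± 0.32), against 0.139% of all genes. With all libraries none of the 9 was called in any difference of responses, against 0.0262% of genes for LYVE1+CX3CR1+ minus MHCII+CD11c-, 0.0327% for LYVE1+CX3CR1+ minus MHCII+CD11c+ and 0% for MHCII+CD11c+ minus MHCII+CD11c-. At an unadjusted edgeR p under 0.05 these differences held 0, 1 (C5ar1) and 1 (C5ar1) of the 9 genes, beside 7.54%, 8.02% and 3.25% of all genes. DESeq2 called none of the 9, against 0.256%, 0.301% and 0.00876% of the genes it tested.

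Marker sums also varied between the MHCII+CD11c+ libraries, not all in the pattern of the complement genes. The LYVE1 subset markers, 6 of 6 detected, summed to 100, 632 and 64.3 CPM in controls 1 to 3 and to 574 and 281 after IC. This order of the 5 libraries was the same for C3ar1, but not for the C1q chains or C5ar1, which were highest in IC library 1. The dendritic cell markers, 6 of 6 detected, summed to 576, 218 and 498 CPM in controls and 236 and 347 after IC. The neutrophil markers, of which 2 of 6 were at 0 after IC, summed to 252, 74.3 and 179 CPM in controls and 25.6 and 29.7 after IC, and the mast cell markers to 0.425, 2.04 and 3.40 and then 18.7 and 41.6 CPM. Fibroblast markers summed to 220, 38.3 and 8.7 CPM and then 17.2 and 52.6. The 6 endothelial markers, of which 2 were at 0 in every MHCII+CD11c+ control and 1 in both IC libraries, summed to 7.02, 15 and 3.03 CPM in controls and 27.8 and 28.8 after IC. The part of the sorted mix of cells in these changes was not tested.

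**Figure D4:**
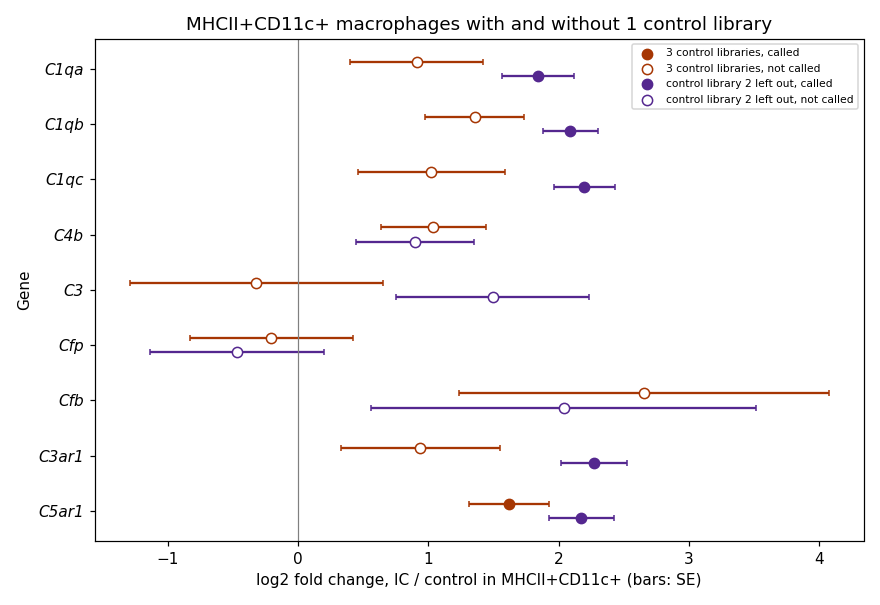
Log2 fold change after IC over control in MHCII+CD11c+ macrophages (x axis, bars are SE) for each complement gene, with all 3 control libraries and with control library 2 left out, filled where called. Control library 2 was singled out in part by its C1q level. The C1q chains and C3ar1 move from 0.91 to 1.36 with the library to 1.84 to 2.27 without it, C5ar1 is filled in both, and C3 crosses 0.

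The C3, Cfp, Cfb and C3ar1 responses of the other subsets were not called. C3 in LYVE1+CX3CR1+ macrophages went from 5.51, 12.7 and 8.09 to 6.73, 0 and 0 CPM (log2 -1.79 ± 1.31, adjusted p = 0.581), and with surrogate variables in the model this change of C3 was called (adjusted p = 0.0355). Cfp in LYVE1+CX3CR1+ macrophages went from 145, 88.1 and 182 to 61.2, 25.8 and 108 CPM, with overlap (log2 -1.10 ± 0.57, adjusted p = 0.43). C3ar1 was nearly level in LYVE1+CX3CR1+ macrophages, at 846, 707 and 704 CPM after IC (log2 0.01 ± 0.54, 95% interval -1.18 to 1.20). C4b had log2 fold changes of -0.12 ± 0.36 in LYVE1+CX3CR1+ and 0.16 ± 0.36 in MHCII+CD11c- macrophages, with intervals of -0.88 to 0.65 and -0.61 to 0.92. In MHCII+CD11c+ macrophages C4b went from 76.8, 58.5 and 85.9 to 230 and 72.2 CPM, with overlap (log2 1.04 ± 0.41, adjusted p = 0.815). This value of C4b rests on 1 library, since it was 1.62 and called without IC library 2 (adjusted p = 0.049) and -0.04 without IC library 1. Cfb was at most 7.16 CPM after IC in any library.

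The C1q chains also differed in their shares. As shares of the 3-chain sum of CPM per kb of exon, the B chain went from 40.6%, 37.2% and 36.9% in MHCII+CD11c- controls to 42.2%, 46.2% and 46.5% after IC, with no overlap, while the A chain share was 40.8% ± 1.25 (SD, n = 3) in controls and 34.4% ± 1.27 after IC. In LYVE1+CX3CR1+ macrophages the B chain share was 34.2%, 37.7% and 33.4% in controls and 38.4%, 38.4% and 41.0% after IC, again with no overlap. In MHCII+CD11c+ macrophages it was 44.9%, 38.9% and 47.8% in controls and 46.5% and 52.5% after IC, where groups overlapped. These shares were chosen for display after their values were seen and are given with no test, and the C chain share, 18.4% to 23.9% in group means, depends on the exon length assumed for C1qc.

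**Figure D5:**
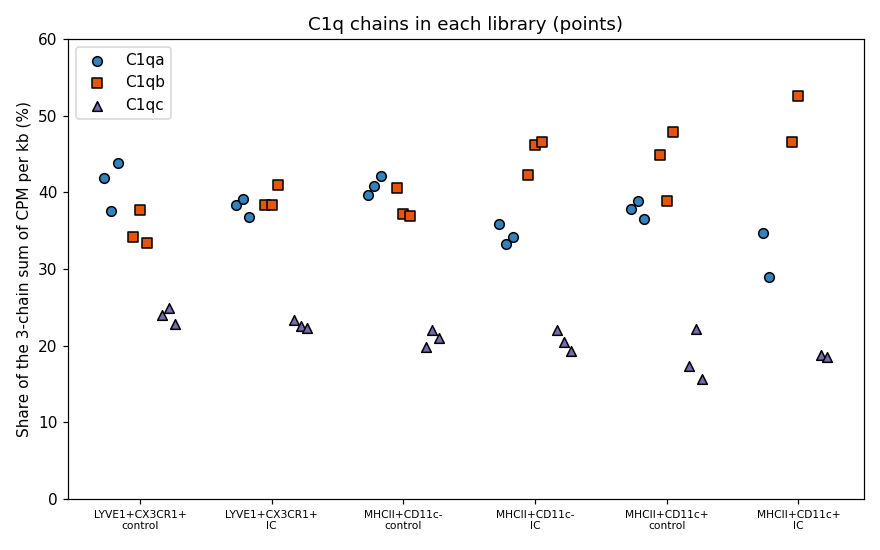
Share of each C1q chain in the sum of the 3 chains' CPM per kb of exon (y axis, percent) in each library (points) of the 6 groups. The B chain share is higher after IC than in controls in LYVE1+CX3CR1+ and MHCII+CD11c- macrophages with no overlap, at 38.4% to 41.0% against 33.4% to 37.7% and 42.2% to 46.5% against 36.9% to 40.6%.

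Of 45 further complement genes, 36 were in the table and 23 passed the filter. In controls, LYVE1+CX3CR1+ exceeded MHCII+CD11c+ macrophages for 6 of these 23 and were lower for 1, where 15.2% of all genes were called, and MHCII+CD11c+ were below MHCII+CD11c- for 7 and higher for 1, where 8.66% were. The 1 gene higher in MHCII+CD11c+ was Itgax, the CD11c gene on which the subsets were sorted, and Itgax was also called lower in LYVE1+CX3CR1+ macrophages than in MHCII+CD11c- controls (log2 -3.03 ± 0.57, adjusted p = 0.00959). The others named here were receptors, pattern recognition molecules and proteases. C5ar2, the second C5a receptor, was at 24.5 ± 4.97 CPM (SD, n = 3) in LYVE1+CX3CR1+ controls, 52.9 ± 29.3 for MHCII+CD11c- and 2.60 ± 1.51 for MHCII+CD11c+ controls, and its log2 difference between MHCII+CD11c+ and MHCII+CD11c- was -4.36 ± 0.55 (adjusted p = 1.948e-05). The collectin gene Colec12 (2.97 ± 0.46), the ficolin gene Fcna (3.43 ± 0.84), the receptor gene Cd93 (1.97 ± 0.46) and Itgam, the alpha chain of complement receptor 3 (0.60 ± 0.18), were higher in LYVE1+CX3CR1+ macrophages than in MHCII+CD11c+ controls. In MHCII+CD11c+ against MHCII+CD11c- controls Cd93 (-2.92 ± 0.46), Colec12 (-1.94 ± 0.46), Fcna (-3.71 ± 0.84), the C1r protease gene C1ra (-2.37 ± 0.59) and the factor D gene Cfd (-5.42 ± 1.73) were lower, with Cfd at most 14.0 CPM. Itgam, Fcna, Cfd, C1ra and, against MHCII+CD11c-, Colec12 lost their calls without at least 1 single library.

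After IC, 2 further genes of the list rose, 1 in MHCII+CD11c- macrophages, where 0.701% of all genes were called, and 1 in MHCII+CD11c+ macrophages, where 0.216% were. C1qbp, the gene of a mitochondrial protein that can bind C1q, rose in MHCII+CD11c- macrophages from 24.8 ± 6.55 to 63.7 ± 6.59 CPM (log2 1.35 ± 0.30, adjusted p = 0.0289). Cd93 rose in MHCII+CD11c+ macrophages from 19.0 ± 8.05 (SD, n = 3) to 131.2 ± 0.24 CPM (SD, n = 2; log2 2.76 ± 0.50, adjusted p = 0.0411). Cd93 is also expressed by endothelium, whose markers were higher in these IC libraries, with Kdr at 1.13 ± 1.61 CPM in controls and 11.1 ± 1.96 after IC, and their part in the change was not tested. Both calls were lost without single libraries, at adjusted p up to 0.222 for C1qbp and 0.597 for Cd93. Between subsets after IC, Cd55, which encodes decay accelerating factor, was lower in LYVE1+CX3CR1+ (0.488 ± 0.84 CPM) and in MHCII+CD11c+ (2.49 ± 0.62) than in MHCII+CD11c- macrophages (29.5 ± 19.5 CPM), with log2 differences of -5.72 ± 0.94 (adjusted p = 0.00037) and -3.55 ± 0.78 (adjusted p = 0.0189). In LYVE1+CX3CR1+ macrophages after IC the median of Cd55 was 0 CPM and the highest library 1.46 CPM. The size of the first difference thus rests on libraries without a Cd55 read, and it ran from -10.09 to -5.05 over the alternatives. Fcna (-4.71 ± 0.92) and C5ar2 (-2.11 ± 0.54) were lower in MHCII+CD11c+ macrophages than in MHCII+CD11c-, and Colec12 was 2.83 ± 0.51 higher in LYVE1+CX3CR1+ macrophages than in MHCII+CD11c+. The second of these Cd55 calls, the Fcna and C5ar2 calls and the Colec12 call were lost without MHCII+CD11c+ IC library 2. Vsig4, which encodes the C3b receptor of tissue macrophages, was at 1172 ± 47.5 CPM in LYVE1+CX3CR1+ controls and 1798 ± 217 after IC, against 119 ± 162 and 238 ± 269 in MHCII+CD11c- macrophages, and was called in no comparison.

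The genes whose log2 CPM followed each complement gene most closely over the 17 libraries are given as a description, with points that share subsets and treatment. Abca1 (Pearson r = 0.976), Prune2 (0.974) and Mpp1 (0.974) were closest to C1qa. Ctsb (0.977) and Lgmn (0.973) were among the closest to C1qb, and Prune2 (0.989), Mpp1 (0.982) and Sash1 (0.982) to C1qc. For C3ar1 they were Prune2 (0.982), Itga9 (0.982) and Sash1 (0.974), and for C5ar1 Ninj1 (0.981), Lgmn (0.98) and Ctsb (0.978). C3 was followed by Flrt2 (0.934), the MHCII gene H2-Aa (0.927) and Mcf2l (0.921), C4b by Nisch (0.959), Epb41l1 (0.946) and Ly6e (0.942), and Cfp by Gfra2 (0.943), Dcp2 (0.936) and Bcam (0.926). Cfb, at low counts, was followed by Os9 (0.888), Ifi211 (0.872) and Cd38 (0.868).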

How the data were processed

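RNA (5 ng per library) from sorted synovial macrophages was made into libraries with a stranded total RNA kit. The authors trimmed reads with Trim Galore, aligned them to mm10 with HISAT2 and counted reads per gene with featureCounts, and deposited raw counts. Tool versions, the annotation, the strand setting and the treatment of reads that match several genes are not given in the sources used here. The joint count table held 17 labelled libraries, whose values were identical to the 17 single-library files, and 1 column that matched no sample, summed to 0 and was not used. The knockout gene cannot be checked against a wild-type group here.

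Counts were fitted with edgeR 4.0.16 (R 4.3.3; TMM scaling, filterByExpr with a minimum count of 10, robust quasi-likelihood fit of 6 group means, 11 residual degrees of freedom), and p-values were adjusted by Benjamini-Hochberg over 15272 genes, with calls at adjusted p under 0.05. SEs and 95% intervals are from the same fit, and ± is SE for log2 differences and SD for levels. No 2 libraries of a group agreed within sampling noise (lowest chi-square per degree of freedom 6.77). Alternatives were DESeq2 1.42.0, RLE size factors, no filter, only the groups compared, a replicate block, 5 surrogate variables (sva 3.50.0), equal depth and leaving out single libraries. CPM per kb used the exon union of each gene in GENCODE for GRCm38. The genes named are the 9 members in every comparison, each gene called from a list of 45 further complement genes, and the 3 genes most correlated with each member. A few genes that this rule names are not reported here, though counts over the list include them. Vsig4 was named after its values were seen. The members and lists were chosen with earlier results of these data known. The fit was tested on simulated counts.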

Additional observations from a re-analysis of the deposited data

How the results depend on the processing

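No direction reversed for any call under any alternative. Of the 9 genes, those called after IC in MHCII+CD11c+ macrophages (1 in the report) were 2 by DESeq2, 0 with only the groups compared, and 0 with the replicate block, and 0 to 5 on leaving out single libraries (5 without control 2, 0 without control 1, control 3 or IC library 1). In LYVE1+CX3CR1+ macrophages surrogate variables gave 1 call after IC (C3) in place of 0. Between LYVE1+CX3CR1+ and MHCII+CD11c- controls (0 in the report) DESeq2, only the groups compared and the replicate block each gave 2 calls, and surrogate variables 1. Between MHCII+CD11c+ and MHCII+CD11c- controls surrogate variables gave 3 in place of 5. After IC, LYVE1+CX3CR1+ against MHCII+CD11c+ (4) gave 7 by DESeq2, 8 with only the groups compared, 7 with surrogate variables and 6 each with RLE size factors and at equal depth, and 1 to 4 without single libraries (1 without MHCII+CD11c+ IC library 2). MHCII+CD11c+ against MHCII+CD11c- after IC (2) gave 4 by DESeq2 and 6 with only the groups compared, and 1 to 2 without single libraries. LYVE1+CX3CR1+ against MHCII+CD11c- after IC (3) gave 2 with no low count filter, with only the groups compared and with surrogate variables, and 1 to 3 without single libraries. Differences of responses (0) reached 5 for LYVE1+CX3CR1+ minus MHCII+CD11c+ and 3 for MHCII+CD11c+ minus MHCII+CD11c-, in a range from 0, without MHCII+CD11c+ control 2. Apart from the construction of each alternative, the cause was not tested.

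Correlations of deviations between same-numbered libraries ran from -0.153 to 0.286, and in no comparison were all above 0.1. Between subsets of the same treatment all were above 0, from 0.00129 to 0.286. Between IC and control of the same subset they ran from -0.153 to 0.0817. Whether the numbers pair subsets of the same treatment is not settled by these values, and the main fit left pairing out. With the replicate block the calls were 0 for the IC response in MHCII+CD11c+, 2 for LYVE1+CX3CR1+ against MHCII+CD11c- controls and 8 for LYVE1+CX3CR1+ against MHCII+CD11c+ controls, and it moved no other count of the 9 genes. In 1 of 6 pairs of groups with 3 shared numbers, MHCII+CD11c+ and MHCII+CD11c- controls, every library correlated best with its own number. For LYVE1+CX3CR1+ and MHCII+CD11c+ controls 3 and 2 of 3 libraries did, and for LYVE1+CX3CR1+ and MHCII+CD11c- 1 and 2 in controls and 2 and 3 after IC. Between IC and control these numbers were 2 and 1 in LYVE1+CX3CR1+, and 1 and 1 in MHCII+CD11c- macrophages. Depth limits Cfb, Cfd, and C3 and Cd55 in LYVE1+CX3CR1+ macrophages, all with few reads, and 2 libraries limit MHCII+CD11c+ after IC.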
